A study of Homo sapiens with 6 samples.

Results

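The 10 genes described here encode inhibitors and feedback regulators of NF-κB: the classical IκB proteins (NFKBIA, NFKBIB and NFKBIE), the nuclear IκB proteins (NFKBIZ and BCL3), the ubiquitin-editing enzyme A20 with its binding partners (TNFAIP3, TNIP1 and TNIP2), the deubiquitinase CYLD, and N4BP1. They were taken by gene name from the 58735 genes of the count table, and each name matched a single row. RNA-Seq had been performed on MCF10A, an established line of nonmalignant human breast epithelial cells, 48 hours after siRNA transfection. 3 libraries came from cells given a nontargeting pool (siControl) and 3 from cells given an siRNA pool against DAB2IP, a Ras GTPase-activating protein (siDAB2IP). All 6 libraries came from the same line in the same medium, with horse serum, insulin, epidermal growth factor, cholera toxin and hydrocortisone, and the labels name no further stimulus. The comparison therefore rests on 1 cell line and 1 siRNA pool. It asks how these inhibitors and feedback regulators of NF-κB stood at the RNA level after DAB2IP knockdown.

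NF-κB is a family of dimeric transcription factors that classical IκB proteins hold in the cytoplasm. Signals from cytokine receptors build ubiquitin chains that activate the IκB kinase (IKK), which marks IκB for degradation and frees the dimers to enter the nucleus. Among the genes that NF-κB then switches on are its own inhibitors, of which NFKBIA and TNFAIP3 are the textbook cases. A20 and CYLD act upstream by taking apart or capping the ubiquitin chains, whereas IκBζ (NFKBIZ) and BCL3 act inside the nucleus, where they bind NF-κB dimers on DNA and can raise or lower the output of particular genes.

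Because NF-κB feedback runs through κB sites in DNA, the promoters of the 10 genes are shown first. RefSeq promoter sequences (GRCh38.p14, 250 bases before to 50 after a transcription start) were found for 9 of the 10 genes, covering 14 starts, and NFKBIE was the gene not matched. The core GGGNNTTTCC, searched on both strands (GGAAANNCCC on the other), was present in 6 of the 9 genes, at 6 of the 14 starts. This core was held by 1.91% of all 35116 promoters listed and by 2.33% of all 27305 genes. The κB consensus, another motif of 10 bases that is looser than the core at some positions and stricter at 1, was present in 7 of the 9 genes at 9 starts, against 5.91% of all promoters and 7.09% of all genes. The 10 genes were chosen as inhibitors and feedback regulators of NF-κB, so κB matches follow in part from that choice. The 9 genes also had 14 starts, against 35116 promoters for 27305 genes, and the difference in shares was not tested. In 3 genes the core lay in a stretch without annotated exons. In the following sequences, of 120 bases each and written in the direction of the gene, capitals mark the core. It lay at bases -81 to -72 from the start of NFKBIA (chr14:35404750-35404869, minus strand), at -223 to -214 in NFKBIZ (chr3:101827740-101827859, plus strand) and at -189 to -180 in CYLD (chr16:50741836-50741955, plus strand).
NFKBIA: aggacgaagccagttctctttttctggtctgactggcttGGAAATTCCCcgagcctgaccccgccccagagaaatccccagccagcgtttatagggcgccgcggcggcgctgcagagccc
NFKBIZ: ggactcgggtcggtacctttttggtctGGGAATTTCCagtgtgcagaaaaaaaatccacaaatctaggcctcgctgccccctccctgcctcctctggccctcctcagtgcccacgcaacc
CYLD: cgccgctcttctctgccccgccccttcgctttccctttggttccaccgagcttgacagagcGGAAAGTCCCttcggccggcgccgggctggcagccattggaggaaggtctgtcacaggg

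For the other 4 genes with a match near a start, 30 bases around it are shown. TNFAIP3 (chr6:137867188-137867217, plus strand) held the core in duplicate, at -67 to -58 and -55 to -46. TNIP1 (chr5:151081057-151081086, minus strand) held it at -42 to -33, and NFKBIB (chr19:38899932-38899961, plus strand) at -28 to -19 from its downstream start, where a second match of the looser consensus overlapped it and extended the capitals by 1 base. BCL3 (chr19:44748700-44748729, plus strand) held only the looser consensus, at bases 3 to 12 after its start. No match was found in these windows for TNIP2 or N4BP1.
TNFAIP3: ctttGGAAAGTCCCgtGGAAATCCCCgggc
TNIP1: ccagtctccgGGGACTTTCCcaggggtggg
NFKBIB: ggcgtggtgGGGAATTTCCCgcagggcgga
BCL3: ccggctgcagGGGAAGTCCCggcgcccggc

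The libraries held 16353783 to 21916062 counts. Expression levels are given as CPM, counts scaled to library size with the TMM factors of edgeR. Differences are given as log2 fold changes of siDAB2IP against siControl with their standard error (SE) from edgeR's quasi-likelihood test, and a gene is said to have risen or fallen where the Benjamini-Hochberg adjusted p over the 15430 genes tested was under 0.05. The labels do not say that the libraries came from separate cultures, so the p-values measure only the spread between these libraries. In such bulk RNA, fewer cells expressing a gene and less of its RNA per cell cannot be told apart. DAB2IP itself was at 103, 94.2 and 77.4 CPM in siControl replicates 1, 2 and 3 and at 27.5, 25.6 and 22.4 CPM in the siDAB2IP replicates, so each knockdown library was below each control. Its log2 fold change was -1.86 (SE 0.13, edgeR adjusted p = 9.71e-05).

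All 10 genes passed the filter on low counts, with at least 119 counts in every library. After DAB2IP knockdown NFKBIA, NFKBIZ and BCL3 fell (27.9%, 32.4% and 29%), and NFKBIB rose by 41.2%. TNFAIP3, TNIP1, TNIP2, CYLD, NFKBIE and N4BP1 did not pass the test. Thus 1 of 10 rose, where 6.55% of all genes tested rose, and 3 of 10 fell, where 7.65% of all genes fell. In 5 genes the siDAB2IP libraries all lay below the siControl libraries, and in 2 they all lay above them, where 18.3% and 17.6% of all genes did so. The median log2 fold change of the 10 genes was -0.23, and that of all genes tested was 0.01. Exact permutation of 3 libraries against 3 cannot give a p below 0.1, so the calls rest on the model fitted across all genes.

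**Figure D1:**
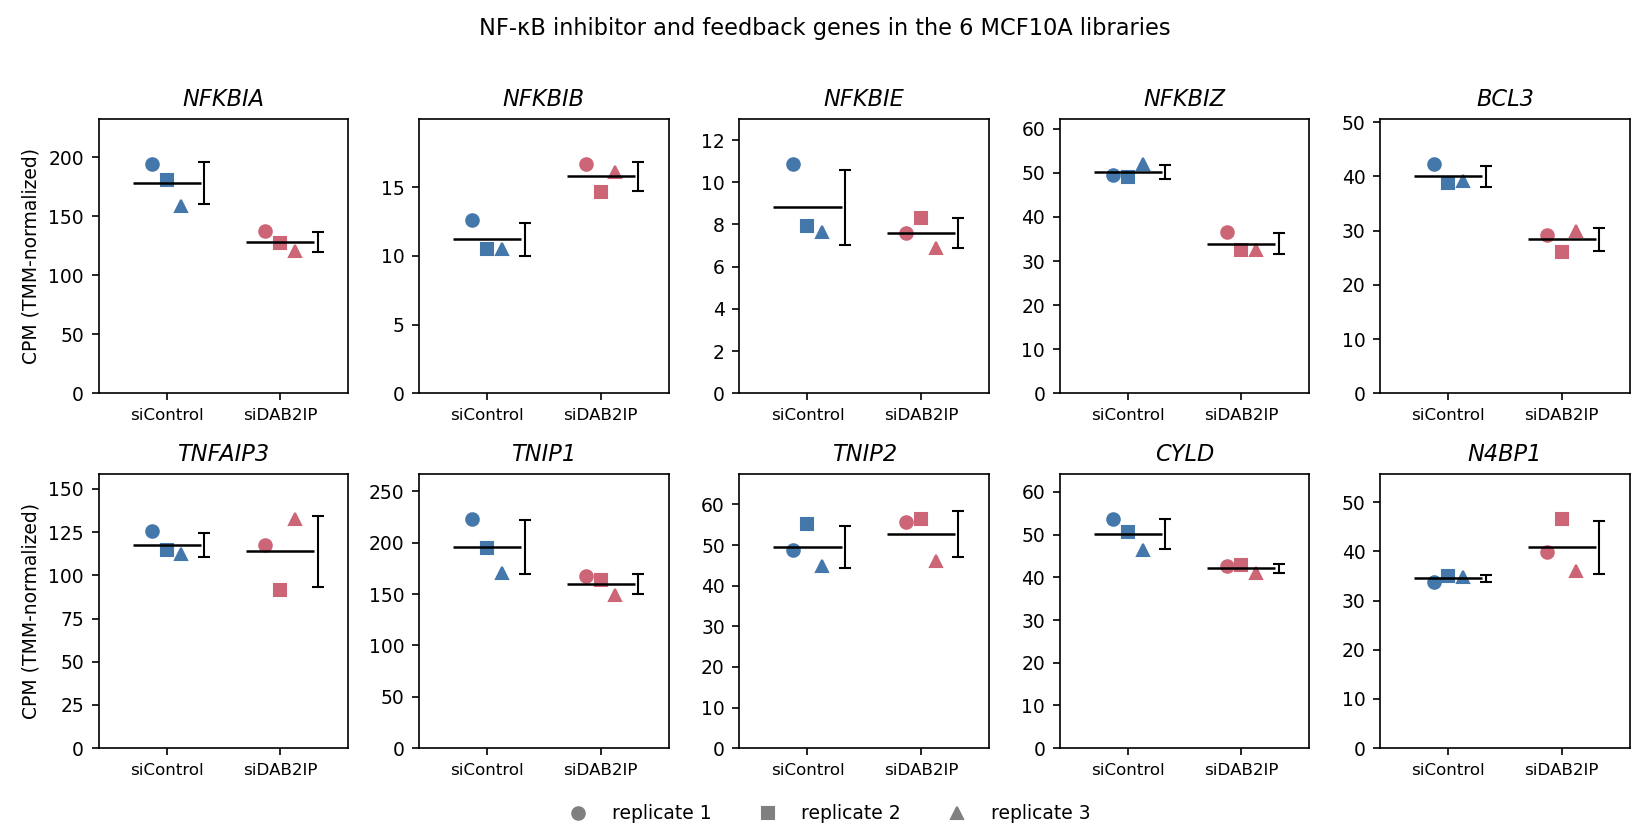
Expression of the 10 genes in each library, as TMM-normalized CPM on a linear axis that starts at 0, with siControl in blue and siDAB2IP in red. Each point is 1 library, the horizontal line is the group mean and the bar beside it is the SD (n = 3). NFKBIA, NFKBIZ, BCL3, TNIP1 and CYLD show no overlap with siDAB2IP lower, and NFKBIB and N4BP1 no overlap with siDAB2IP higher.

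NFKBIA (ENSG00000100906, chr14:35401511-35404749, minus strand, GRCh38) encodes IκBα, the inhibitor that NF-κB resynthesizes quickly and that ends each round of signaling. It was at 194, 181 and 159 CPM in siControl replicates 1, 2 and 3 and at 137, 127 and 120 CPM in siDAB2IP replicates 1, 2 and 3. The highest knockdown library was thus below the lowest control. The means were 178 ± 17.7 and 128 ± 8.53 CPM (SD, n = 3), with a log2 fold change of -0.47 (SE 0.11, 95% interval -0.71 to -0.23, edgeR adjusted p = 0.0188). Within pairs of libraries with the same replicate number the log2 differences were -0.50, -0.51 and -0.40. The edgeR call was lost without siControl replicate 1 (adjusted p = 0.0549), siControl replicate 2 (0.0726) or siDAB2IP replicate 2 (0.0513), while the log2 fold change stayed between -0.56 and -0.43 whichever library was left out.

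NFKBIB (ENSG00000104825, chr19:38899700-38908893, plus strand) encodes IκBβ, which is not resynthesized in the same rapid loop and can hold dimers for longer. Its values were 12.6, 10.5 and 10.5 CPM in siControl and 16.6, 14.6 and 16.1 CPM in siDAB2IP. The direction was opposite to that of NFKBIA, and the groups did not overlap. The means were 11.2 ± 1.2 and 15.8 ± 1.05 CPM (SD, n = 3), with a log2 fold change of 0.50 (SE 0.14, 95% interval 0.18 to 0.82, edgeR adjusted p = 0.0441). The within-pair log2 differences were 0.40, 0.48 and 0.62. This call was close to the threshold: with edgeR it was kept when siDAB2IP replicate 3 was left out and lost without each of the other 5 libraries, with adjusted p = 0.0637, 0.194 and 0.150 without siControl replicates 1, 2 and 3 and 0.122 and 0.0568 without siDAB2IP replicates 1 and 2. NFKBIB shares 40 exonic bases, 1.72% of its exonic length, with SIRT2 on the opposite strand, which had 542 to 820 counts per library, and whether reads were counted by strand is not given in the sources used here.

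NFKBIE (ENSG00000146232, chr6:44258166-44265788, minus strand) encodes IκBε, another inducible cytoplasmic inhibitor. It was at 10.8, 7.94 and 7.63 CPM in siControl and 7.62, 8.31 and 6.90 CPM in siDAB2IP. Only siControl replicate 1 stood above the other libraries, and the groups overlapped. The log2 fold change was -0.21 (SE 0.19, 95% interval -0.62 to 0.21, edgeR adjusted p = 0.506).

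Both genes of the nuclear IκB proteins fell. NFKBIZ (ENSG00000144802, chr3:101827990-101861020, plus strand) encodes IκBζ, a cofactor for secondary NF-κB response genes. It was at 49.4, 49.1 and 51.9 CPM in siControl and at 36.6, 32.5 and 32.6 CPM in siDAB2IP. The siControl values were tightly spaced, and every knockdown library was well below them. The means were 50.1 ± 1.55 and 33.9 ± 2.36 CPM (SD, n = 3), with a log2 fold change of -0.56 (SE 0.10, 95% interval -0.79 to -0.34, edgeR adjusted p = 0.00667). NFKBIZ passed the threshold in each of the 15 other analyses that were run, including those without any 1 library.

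BCL3 (ENSG00000069399, chr19:44747705-44760044, plus strand) encodes a nuclear IκB protein that binds dimers of the p50 and p52 subunits and is known as a proto-oncogene. It was at 42.2, 38.7 and 39.0 CPM in siControl and at 29.2, 26.0 and 29.9 CPM in siDAB2IP. The means were 40.0 ± 1.91 and 28.4 ± 2.07 CPM (SD, n = 3), with a log2 fold change of -0.49 (SE 0.11, 95% interval -0.73 to -0.25, edgeR adjusted p = 0.0160). The groups did not overlap, and the intervals of NFKBIA, NFKBIZ and BCL3 covered one another's estimates. Within pairs the log2 differences were -0.53, -0.57 and -0.38 for BCL3 and -0.43, -0.60 and -0.67 for NFKBIZ. The edgeR call of BCL3 was lost without siControl replicate 1 (adjusted p = 0.0537) or siControl replicate 2 (0.0604).

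**Figure D2:**
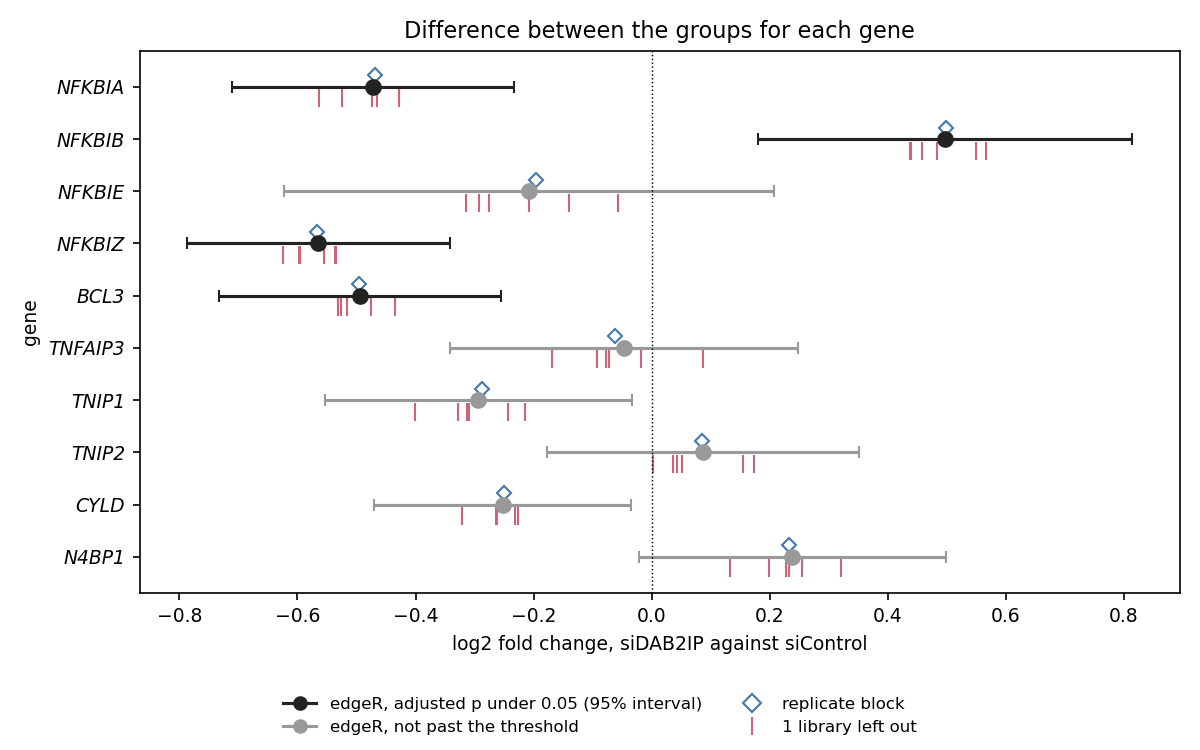
Log2 fold change of each gene, siDAB2IP against siControl, with its 95% interval from edgeR (black where the adjusted p was under 0.05, grey otherwise), the value from the fit blocked by replicate number (blue diamonds) and the values with 1 library left out (red ticks). NFKBIA, NFKBIZ and BCL3 lie between -0.56 and -0.47, NFKBIB lies at 0.50, and TNFAIP3 is the gene whose ticks fall on both sides of 0.

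None of the 3 genes of the A20 group passed the test. TNFAIP3 (ENSG00000118503, chr6:137867190-137883310, plus strand) encodes A20, an induced ubiquitin-editing enzyme. It was at 126, 115 and 113 CPM in siControl and at 118, 91.8 and 132 CPM in siDAB2IP. The knockdown libraries held both the lowest and the highest of the 6 values, and their SD was 20.6 CPM against 7.06 CPM in siControl. The means were 118 and 114 CPM (n = 3), a log2 fold change of -0.05 (SE 0.13, 95% interval -0.34 to 0.25, edgeR adjusted p = 0.853). Within pairs the log2 differences were -0.10, -0.32 and 0.23, and without siDAB2IP replicate 2 the fold change turned to 0.09 on the log2 scale. An antisense gene, AL357060.1, shares 95 exonic bases with TNFAIP3 (1.88% of its exonic length) and had 14 to 46 counts per library.

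TNIP1 (ENSG00000145901, chr5:151029940-151093580, minus strand) encodes ABIN-1, which binds ubiquitin chains and brings A20 to its targets. It was at 223, 195 and 170 CPM in siControl and 167, 163 and 149 CPM in siDAB2IP. Each knockdown library was below each control, although siControl replicate 3 exceeded siDAB2IP replicate 1 only slightly. The means were 196 ± 26.3 and 160 ± 9.74 CPM (SD, n = 3), with a log2 fold change of -0.29 (SE 0.12, 95% interval -0.55 to -0.03, edgeR adjusted p = 0.122). When replicates of the same number were blocked in the edgeR fit, the log2 fold change was -0.29 and the adjusted p 0.0499. Under the block 4 of the 10 genes fell and 1 rose, where 11.4% of all genes fell and 9.59% rose.

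TNIP2 (ENSG00000168884, chr4:2741648-2756376, minus strand) encodes ABIN-2, a related A20-binding protein that also stabilizes the kinase TPL2. It was at 48.8, 55.2 and 44.9 CPM in siControl and 55.8, 56.3 and 46.1 CPM in siDAB2IP. Replicate 3 was lowest in each group, and the groups overlapped. The log2 fold change was 0.09 (SE 0.12, 95% interval -0.18 to 0.35, edgeR adjusted p = 0.677).

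CYLD (ENSG00000083799, chr16:50742050-50801935, plus strand) encodes a deubiquitinase that removes ubiquitin chains from signaling adaptors, and is known as a tumor suppressor. It was at 53.6, 50.6 and 46.5 CPM in siControl and 42.7, 42.8 and 40.9 CPM in siDAB2IP. The groups did not overlap, but the log2 fold change of -0.25 (SE 0.10, 95% interval -0.47 to -0.03) did not pass the test (edgeR adjusted p = 0.114).

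N4BP1 (ENSG00000102921, chr16:48538726-48620148, minus strand) encodes a ubiquitin-binding protein that restrains NF-κB activation. It was at 33.8, 35.1 and 34.9 CPM in siControl and 39.8, 46.5 and 36.1 CPM in siDAB2IP. The knockdown libraries were all higher, by little in replicate 3. The log2 fold change was 0.24 (SE 0.12, 95% interval -0.02 to 0.50, edgeR adjusted p = 0.202).

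Levels of different genes were compared per length, with the deposited FPKM values. In siControl the order of the means was NFKBIA (74.3 ± 7.39 FPKM, SD, n = 3), TNIP1 (33.5), TNFAIP3 (23.1), TNIP2 (18.3), BCL3 (12.2), NFKBIZ (8.42), NFKBIB (4.77), N4BP1 (4.37), CYLD (3.84) and NFKBIE (3.38). The 3 libraries of each gene lay apart from those of the next gene in this order except for CYLD and NFKBIE, which overlapped. In siDAB2IP the mean of NFKBIA was 53.5 ± 3.64 FPKM (SD, n = 3), still the highest of the 10. NFKBIB (6.22 to 7.10 FPKM) then stood above NFKBIZ (5.44 to 6.15 FPKM), where in siControl NFKBIZ (8.27 to 8.71 FPKM) had stood above NFKBIB (4.48 to 5.36 FPKM). In the knockdown libraries TNIP1 overlapped with TNFAIP3, TNFAIP3 with TNIP2, NFKBIZ with N4BP1, and CYLD with NFKBIE, so the ranges of these neighbors did not separate. CYLD was nonetheless above NFKBIE within each of the 3 knockdown libraries.

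**Figure D3:**
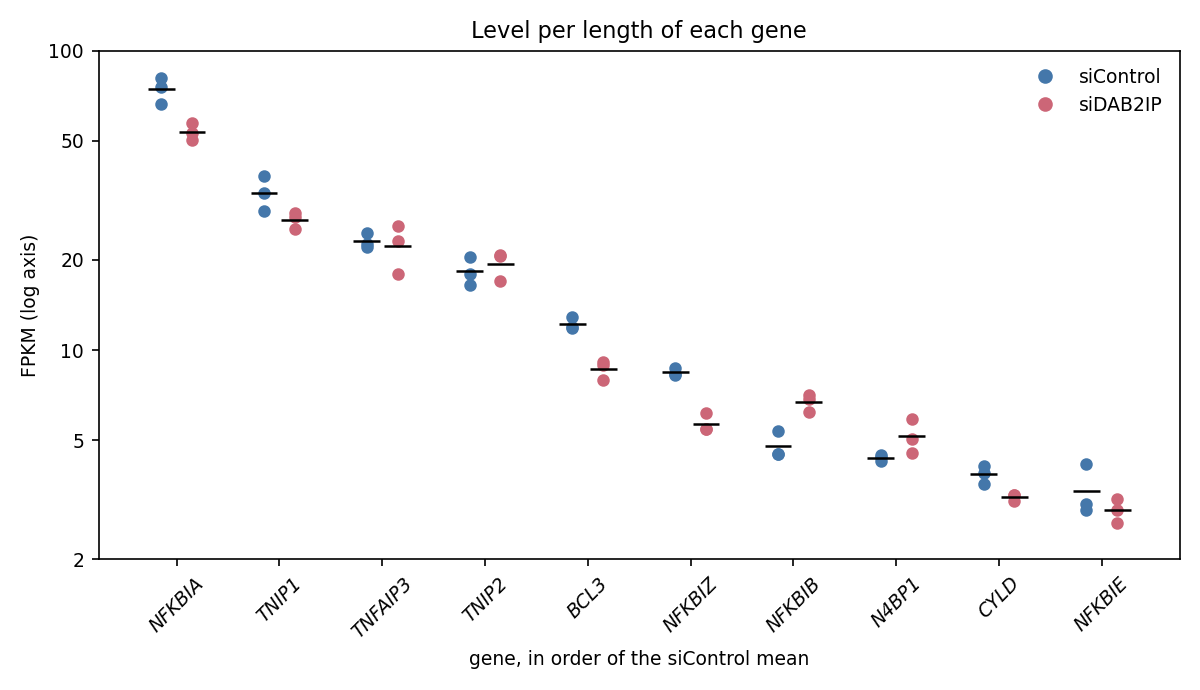
Level of each gene per length, as deposited FPKM on a log axis, in order of the siControl mean. Each point is 1 library (blue siControl, red siDAB2IP) and the line is the group mean. NFKBIA is highest in both groups, at 74.3 and 53.5 FPKM, and NFKBIB passes NFKBIZ in siDAB2IP.

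Ratios within a library do not depend on how libraries are scaled to one another, and they are given as descriptions. The ratio of NFKBIA to NFKBIB in FPKM was 15.1, 16.9 and 14.8 in siControl and 8.08, 8.52 and 7.32 in siDAB2IP. Among the RNA of the 3 classical inhibitors, NFKBIA made up 90.1% ± 0.752 in siControl and 84.7% ± 0.557 in siDAB2IP, and NFKBIB 5.79% ± 0.363 and 10.7% ± 0.769 (SD, n = 3). Neither share overlapped between the groups, and NFKBIA was the main transcript in both.

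Set against the sum of 5 NF-κB subunits, of which NFKB2 was the largest part, the summed classical inhibitors were lower. Their own sum is mostly NFKBIA. The sum of NFKBIA, NFKBIB and NFKBIE was 1.30, 1.24 and 1.16 times that of the 5 NF-κB subunits (RELA, RELB, REL, NFKB1 and NFKB2) in siControl and 0.966, 0.941 and 0.885 times in siDAB2IP. The subunits themselves summed to 66.8 ± 3.03 FPKM in siControl and 67.8 ± 1.80 FPKM in siDAB2IP (SD, n = 3), with overlap. The ratio of NFKBIA to RELA, the main activating subunit, was 5.96 ± 0.669 in siControl and 4.04 ± 0.503 in siDAB2IP (SD, n = 3), with no overlap. The ratio to NFKB1, which encodes the p50 precursor and is itself an NF-κB target, was 5.39 ± 0.715 and 5.35 ± 0.371 (SD, n = 3), with overlap.

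Against the genes of its binding partners, BCL3 was lower per NFKB2 and overlapped per NFKB1. BCL3 per NFKB2, which encodes the p52 precursor, was 0.374, 0.375 and 0.402 in siControl and 0.237, 0.229 and 0.247 in siDAB2IP. NFKBIZ per NFKB1 also overlapped between the groups. In the A20 group, TNFAIP3 per NFKBIA was 0.305, 0.298 and 0.333 in siControl and 0.403, 0.339 and 0.517 in siDAB2IP, all higher, and TNIP1 per TNIP2 was 1.84 ± 0.249 and 1.41 ± 0.0780 (SD, n = 3), all lower. TNFAIP3 per TNIP1 and TNFAIP3 per CYLD overlapped.

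**Figure D4:**
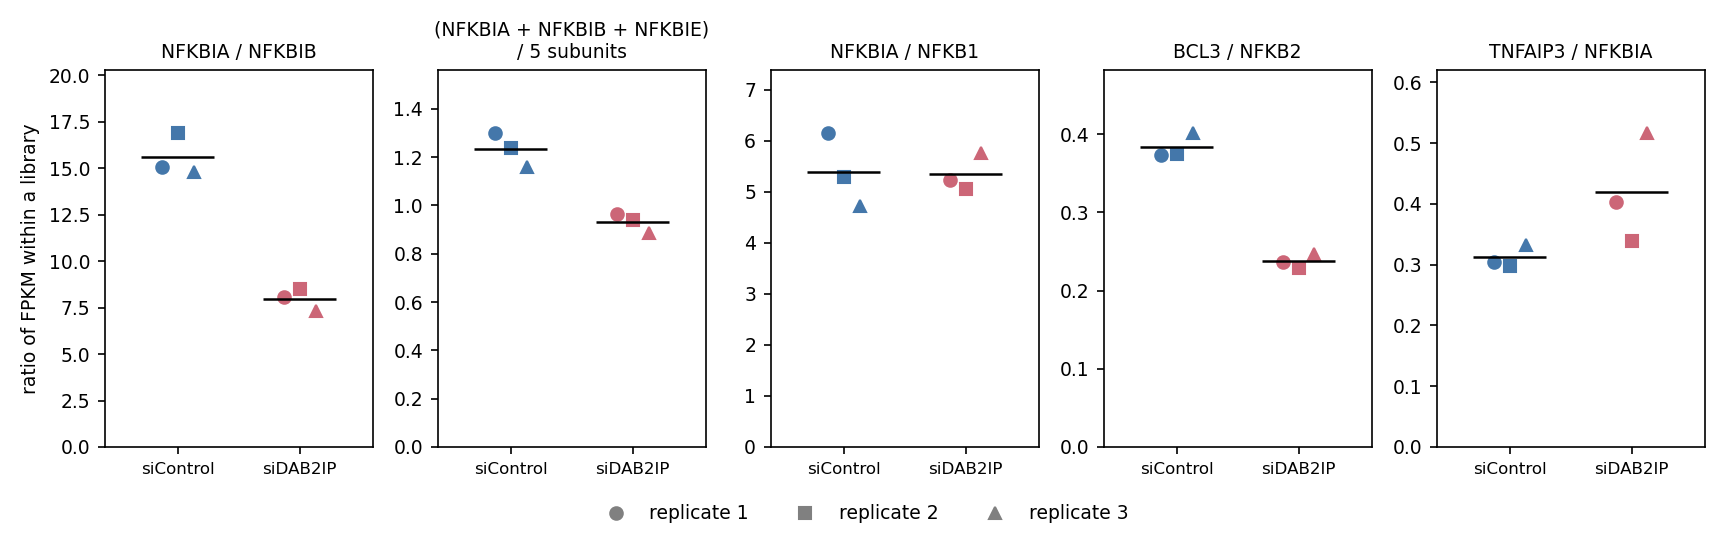
Ratios of FPKM within each library, on linear axes that start at 0, with the group means as lines and the replicate number as the marker shape. The ratio of NFKBIA to NFKBIB is 14.8 to 16.9 in siControl and 7.32 to 8.52 in siDAB2IP, whereas NFKBIA per NFKB1 overlaps between the groups.

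The genes most like NFKBIA and TNFAIP3 over the 6 libraries were found by the Euclidean distance between log2 CPM values centered on each gene's mean. Nearest to NFKBIA were SPTSSA (distance 0.086), GATA3 (0.104), OBSL1 (0.109), ARHGEF37 (0.113) and SATB1 (0.119). Their log2 fold changes lay between -0.54 and -0.45, as the choice by pattern entails, and GATA3 (edgeR adjusted p = 0.0616) and SATB1 (0.201) did not pass the test. Nearest to TNFAIP3 were ANAPC2 (0.081), SEC22B (0.086), PSMA3-AS1 (0.109), C8orf58 (0.115) and PPHLN1 (0.116), with log2 fold changes between -0.11 and -0.02. None of the other 9 inhibitor genes was among either 5, which says little about their likeness because only 5 of the 15430 genes tested are listed.

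In the rest of the pathway, most genes did not pass the test. Of 9 genes for NF-κB subunits and IKK, 1 rose and 1 fell, which is near the 6.55% and 7.65% of all genes that rose and fell, with a median log2 fold change of 0.09 against 0.01 over all genes. NFKB1 fell from 87.4 ± 3.73 to 63.6 ± 7.52 CPM (SD, n = 3, log2 fold change -0.46, edgeR adjusted p = 0.0217). IKBKG, the regulatory subunit of IKK, rose from 10.3 to 17.8 CPM (log2 fold change 0.79, edgeR adjusted p = 0.0142), a value that is uncertain because the gene has a near-identical pseudogene copy. RELA, RELB, REL, NFKB2, CHUK, IKBKB and MAP3K14 did not pass the test.

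Of 18 receptor-proximal adaptors and ubiquitin enzymes, 1 rose and 2 fell, again near the 6.55% and 7.65% over all genes, with a median log2 fold change of 0.04. When blocked by replicate number 2 rose, with TAB3 added (edgeR adjusted p = 0.0372), where 9.59% of all genes did. BIRC3, which encodes the ubiquitin ligase cIAP2 and is an NF-κB target, fell from 419 ± 14.5 to 209 ± 40.3 CPM (SD, n = 3, log2 fold change -1.004, edgeR adjusted p = 0.00278). TRAF5 fell (-0.59, edgeR adjusted p = 0.0164), and TRAF3, an adaptor that limits the noncanonical pathway, rose (0.44, edgeR adjusted p = 0.0297). The genes of the linear ubiquitin ligase, RNF31, RBCK1 and SHARPIN, had log2 fold changes between -0.03 and 0.00.

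Of 20 other negative regulators, 19 were tested (not IRAK3), and 3 rose and 3 fell, where 6.55% and 7.65% of all genes did, with a median log2 fold change of 0.19. Blocked by replicate number, USP18 also rose (edgeR adjusted p = 0.0196). TNIP3, another ABIN gene, fell from 2.83 ± 0.485 to 0.815 ± 0.299 CPM (SD, n = 3), with a log2 fold change of -1.78 (SE 0.33, edgeR adjusted p = 0.00836). Its counts were low, at 46 to 56 per siControl library and 11 to 20 per siDAB2IP library. Thus the 3 ABIN genes had log2 fold changes of -0.29 (TNIP1), 0.09 (TNIP2) and, from these low counts, -1.78 (TNIP3). The mRNA-decay factors ZFP36 (-0.48, edgeR adjusted p = 0.0167) and ZC3H12A (-0.51, 0.0198), which shorten the life of cytokine transcripts, also fell. TOLLIP (0.39, 0.0248), the CYLD partner SPATA2 (0.59, 0.0415) and the deubiquitinase USP21 (0.32, 0.0419) rose.

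Of 25 output genes known to respond to NF-κB, 20 were tested (not CXCL6, CCL2, LTB, TNF or BCL2A1), and 6 rose and 5 fell, where 6.55% and 7.65% of all genes did, with a median log2 fold change of 0.01. Blocked by replicate number, 7 fell, with IL6 (edgeR adjusted p = 0.0404) and LCN2 (0.0262) added, where 11.4% of all genes did. IL6 was low, with means of 1.11 CPM in siControl and 0.363 CPM in siDAB2IP. LCN2 overlapped between the groups, and its edgeR adjusted p without the block was 0.450. The 6 with the smallest p went both ways. LIF, an interleukin-6 family cytokine, went from 8.15 ± 0.832 up to 26.7 ± 5.63 CPM (SD, n = 3, log2 fold change 1.71), and PLAU (0.74), IER3 (0.81) and BCL2L1 (0.71) rose as well, whereas the mitochondrial superoxide dismutase SOD2 fell from 1599 ± 200 to 580 ± 190 CPM (SD, n = 3, log2 fold change -1.46) and the chemokine gene CXCL2 fell (-1.42). The edgeR adjusted p of these 6 lay between 0.000619 and 0.00569.

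The labelled cell type was checked against markers. All 8 basal mammary markers were tested, with KRT5 the highest at up to 3879 CPM, and PGR had no counts in any library, which allows up to 0.137 to 0.183 CPM (3 counts, counting error only). The basal markers summed to 8307 to 10054 CPM in siControl and 5987 to 6967 CPM in siDAB2IP, with KRT5, KRT14 and KRT17 falling and LAMB3 rising. The groups did not overlap, and what part this has in the values of the 10 genes was not tested. The basal markers TP63, CDH3, EGFR and S100A2 did not pass the test. TP63 (log2 fold change -0.57, 95% interval -0.96 to -0.17) and CDH3 (-0.22, -0.45 to 0.01) were lower in each siDAB2IP library than in each control. EGFR (0.03) and S100A2 (0.15) had positive log2 fold changes. Among the leukocyte markers, CD3E, MS4A1 and TYROBP had no counts in any library, and nearly all of the sum (35.9 to 70.1 CPM in siControl, 49.7 to 77.3 CPM in siDAB2IP) was CD14. The 4 endothelial markers, of which KDR fell, summed to 23.1 to 33.1 and 14.8 to 16.3 CPM. The 5 fibroblast markers, of which COL1A1 rose, summed to 162 to 293 and 146 to 206 CPM. Most of the fibroblast sum was DCN, whose log2 fold change of -0.49 (95% interval -0.96 to -0.02) did not pass the test. The 4 general epithelial markers, none of which passed the test, summed to 620 to 695 and 533 to 746 CPM. The 4 hormone-receptor luminal markers summed to 20.7 to 27.2 and 22.3 to 27.3 CPM, with FOXA1 rising. ESR1 had 3 to 6 counts in the siControl libraries and 7 to 11 in the siDAB2IP libraries, too few to be tested. GATA3, the highest of these 4, was lower in each siDAB2IP library than in each siControl library. It did not pass the test (log2 fold change -0.45, 95% interval -0.77 to -0.14, edgeR adjusted p = 0.0616).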

How the data were processed

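The authors deposited a table of read counts per gene, whole numbers without normalization, and a table of FPKM values, in which each count was divided by gene length and by a scaled library total. The submitters' processing notes name hg38, STAR 2.6.1d, featureCounts 1.5.0-p3, DESeq2 1.20.0 and edgeR 3.24.3. All 58735 genes had the positions and strands of GENCODE release 29 (GRCh38). Tests on counts used edgeR 4.0.16 under R 4.3.3 (filterByExpr with the groups, TMM, glmQLFit, glmQLFTest) and no covariates, and SEs were derived from the F statistic. The scripts were tested on simulated counts. Both groups carry replicate numbers 1 to 3. Deviations from the group mean were correlated across genes. Libraries of the same number gave 0.26, 0.15 and 0.25, and others gave -0.28 to 0.02. Deviations cancel out within a group, so positive values for the same number push the others down, and this contrast is partly built in. The deposited library names also share a first letter within a number. Libraries were therefore treated as paired by number in the blocked fit, although the labels do not say what the numbers stand for. The members and lists were chosen with earlier results of these data known. The genes named are DAB2IP, the 10 members, the list members past the threshold (at most the 6 with the smallest p in a list), and the 5 genes nearest in pattern to NFKBIA and to TNFAIP3. The subunit genes, the linear ubiquitin ligase genes, the list genes called only in the blocked fit, the markers, and AL357060.1 and SIRT2 were named besides, as parts of a ratio, a list or an overlap. A leukocyte marker is not reported here.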

Additional observations from a re-analysis of the deposited data

How the results depend on the processing

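15 alternatives were run: DESeq2 1.42.0, RLE size factors, scaling by library size, no filter, at least 10 counts in every library, the replicate block, limma 3.58.1 on log2(FPKM + 1) and log2(FPKM + 0.1) for genes with a mean of at least 1 FPKM and on log2(FPKM + 1) for all genes with a count, and leaving out each library. 9 of the 10 genes kept the sign of their fold change in all 15, although with a library left out the log2 fold change ranged from 0.0019 to 0.17 for TNIP2, -0.31 to -0.06 for NFKBIE and 0.13 to 0.32 for N4BP1. TNFAIP3 ranged from -0.168 to 0.0872 (log2) with a library left out, the latter without siDAB2IP replicate 2. The number of members that rose was 0 without a filter and 0 with limma on all genes with a count, and 0 to 1 with a library left out. NFKBIB had an edgeR adjusted p of 0.0569 without a filter and a limma adjusted p of 0.0904 on all genes with a count. The number of members that fell was 1 with limma on all genes with a count, where NFKBIA (limma adjusted p = 0.0840) and BCL3 (0.0539) were lost and 29567 genes were tested, and 1 to 3 with a library left out, with 1 without siControl replicate 1 and without siControl replicate 2. Counts for the pathway lists moved too: with a library left out, 0 to 1 subunit and IKK genes rose and 0 to 1 fell (both 0 without siControl replicate 2 and without siControl replicate 3), 0 to 1 adaptors rose and 1 to 2 fell, 0 to 2 other negative regulators rose and 2 to 3 fell, and 4 to 6 output genes rose and 2 to 7 fell. With limma on all genes with a count, 0 subunit and IKK genes rose and 0 fell, 0 adaptors rose and 1 fell, 0 other negative regulators rose and 0 fell, and 0 output genes fell. With limma on filtered genes 0 adaptors rose and 3 output genes fell, and at the smaller pseudocount 1 other negative regulator rose. 2 adaptors rose with DESeq2, scaling by library size, no filter and the block. The causes were not tested. With the replicate block TNIP1 passed (log2 fold change -0.287) and the call of no other gene among the 10 changed, while in the lists TAB3 and USP18 were added to those that rose and IL6 and LCN2 to those that fell. Over all genes 1011 rose and 1181 fell, against 1479 and 1754 with the block, 176 and 202 with limma on all genes with a count, 684 and 817 or 659 and 758 with limma on filtered genes at the larger or smaller pseudocount, 1245 and 1692 without a filter, and 264 to 1172 and 459 to 1352 with a library left out. With scaling by library size 1209 rose and 1091 fell. TNIP1 and CYLD missed the threshold with 95% intervals that leave out 0, so a miss does not show that a gene did not change.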
